A study of Arabidopsis thaliana with 8 samples.

Results

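The 10 genes described here are the somatic H2B genes of Arabidopsis thaliana, taken as the endogenous H2B (HTB) genes other than HTB8, the variant gene of seed and pollen. They are AT1G07790 (HTB1), AT5G22880 (HTB2), AT2G28720, AT5G59910 (HTB4), AT2G37470, AT3G53650, AT3G09480, AT3G45980 (HTB9), AT5G02570 and AT3G46030 (HTB11), where a symbol is given only if the gene table holds one. All 10 were found among the 27444 nuclear protein-coding genes of that table. They were chosen by name and not by any measured value, though with earlier results of these data known.

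H2B is one of the core histones. It pairs with H2A, and H2A-H2B pairs join H3 and H4 in the nucleosome, the particle around which nuclear DNA is wound. Plants carry many H2B genes whose proteins are very alike, and a GFP-tagged H2B is widely used to light up chromatin in living plants, because the tagged protein is built into nucleosomes along the chromosomes. A plant with such a transgene then holds DNA of 1 H2B gene in more copies than before, and a pulldown library of that plant can hold reads of the added copy. These reads can be placed on the native gene that was copied, or elsewhere if they also match other H2B genes.

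Whole seedlings were harvested 7 days after they germinated, and chromatin carrying a GFP-tagged protein was pulled down on a GFP-binding agarose resin and its DNA sequenced (ChIP-seq, chromatin immunoprecipitation with sequencing). The H2B-GFP pulldowns came from Col-0 plants with p35S::AtH2B-GFP, a tagged H2B under the 35S promoter of cauliflower mosaic virus, which is active in most plant tissues; these plants keep their native H2B genes, and the labels do not say which H2B gene was copied. The GBPL3-GFP pulldowns came from the gbpl3-5 mutant with pAtGBPL3::AtGBPL3genomic-GFP (comp2), a genomic copy of the large GTPase gene AtGBPL3 under its own promoter; the label names no H2B transgene. Each fusion had 2 pulldowns and 2 inputs, 8 samples in all. The 4 pulldown peak lists were used, and the inputs were not used here. Nothing in the labels tells whether replicates were separate batches of seedlings, and peak lists hold no expression values by which the tissue could be checked.

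On the nuclear chromosomes the H2B-GFP lists held 1361 peaks in replicate 1 and 8608 in replicate 2, and the GBPL3-GFP lists held 87 and 81. The median peak was 358 and 435 bp wide in the H2B-GFP lists and 327 and 331 bp wide in the GBPL3-GFP lists. The authors' fold enrichment, the ratio of a peak's summit over the background its caller set there, had a median of 1.88 and 1.75 in the H2B-GFP lists, so most H2B-GFP peaks stood little above that background. Whether this background came from the pulldown itself or from an input is not stated, and added DNA copies would be in both. Depth is unknown for all 4 libraries, and a deeper library can yield more peaks.

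The question put to these genes was whether any native copy looked like transgene DNA, that is, carried a peak over its body in both H2B-GFP lists and in neither GBPL3-GFP list. None of the 10 did, though this rule can miss a gene whose tagged copy is present, as AT5G46070 below shows. The same pattern was found for 857 of the 27444 protein-coding genes (3.12%), so a count of 0 among 10 genes is near that background. HTB2 and HTB9 were the 2 genes of the 10 with an H2B-GFP peak in the body in either list. Such a peak was in 26.1% of all protein-coding genes and in 14.8% of those within the length range of the 10 genes. HTB2 had its peak in replicate 2 and HTB9 in replicate 1.

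**Figure D1:**
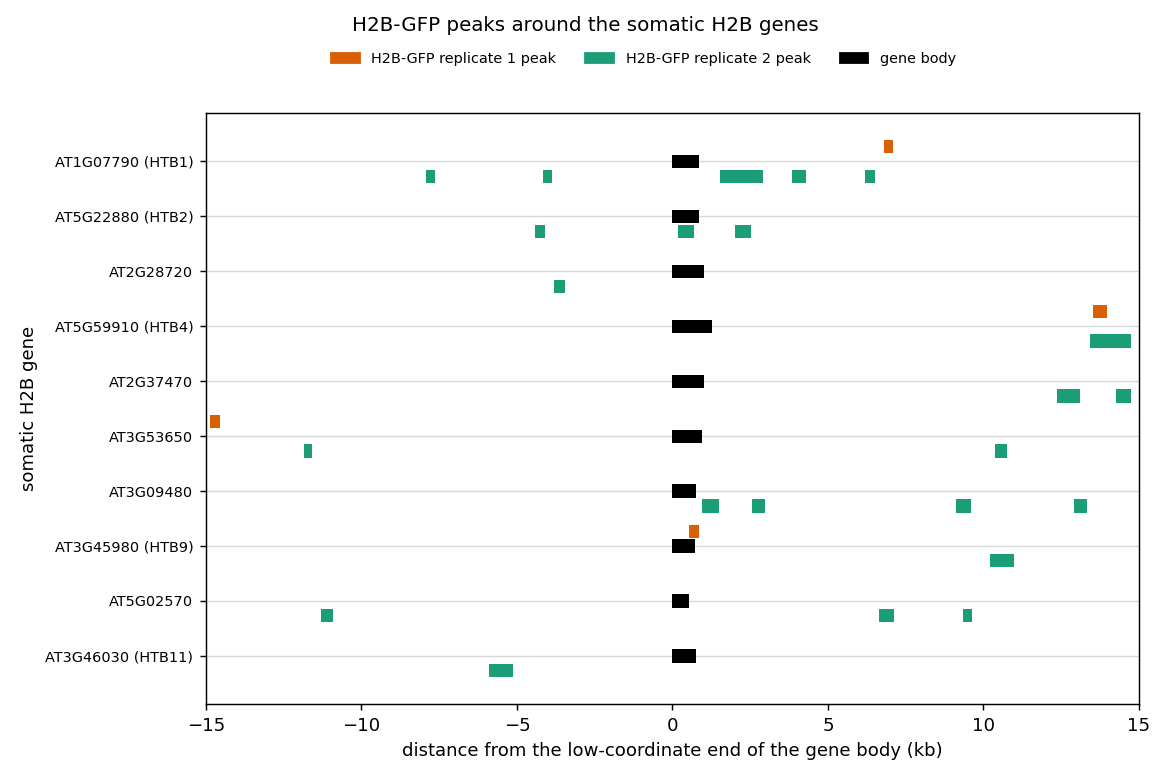
Peaks of the H2B-GFP lists (replicate 1 above and replicate 2 below each line) around the 10 somatic H2B genes, by distance in kb from the low-coordinate end of the gene body (black). Only HTB2 (replicate 2) and HTB9 (replicate 1) have a peak over the body, and no body is under peaks of both replicates.

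HTB2 encodes an H2B and held the strongest peak of the family. In H2B-GFP replicate 2 a peak at chr5:7652045-7652547 (TAIR10, the authors' coordinates) lay wholly inside the gene. It had a fold of 2.42 and a −log10 q of 7.3, where q is the false discovery rate that the authors' caller gave the peak. It covered 503 of the 847 bp of the body (59.4%) and left 177 bp uncovered at the low-coordinate end and 167 bp at the high-coordinate end. Its summit lay 51.1% of the way along the body. No other gene of the table lay under it.

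Within its list the HTB2 peak stood high. It ranked 115 of 8608 by fold and 204 of 8608 by −log10 q, so 1.35% of the peaks had at least its fold. Of the 6915 protein-coding genes with a body peak in this list, 96 (1.39%) reached its fold and 502 (7.26%) reached its share of the body, while 33 reached both, HTB2 included. Among the 753 such genes of 522 to 1286 bp, the range of the 10 H2B genes, 15 (1.99%) reached its fold and 156 (20.7%) its share, so its coverage was less unusual for a gene of this length. The median gene with a peak in this list had 42.4% of its body covered in that length range, at a top fold of 1.79, and 22.2% over all lengths, at a top fold of 1.78.

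H2B-GFP replicate 1 had no peak in HTB2 and none within 54.0 kb of it. The absence was set against how often strong peaks of replicate 2 were also called in replicate 1. Of the 116 replicate 2 peaks with at least the fold of the HTB2 peak, 65 were overlapped by a replicate 1 peak (56.0%, Wilson 95% interval 47.0 to 64.7), against 827 of all 8608 (9.61%). Of the 33 protein-coding genes that reached both the fold and the covered share of HTB2, 22 (66.7%) had a replicate 1 peak in the body. Among genes of that length range, 7 reached both and 5 of them had a replicate 1 peak. HTB2 was thus among the smaller number of such genes called in replicate 2 alone. The intervals cover counting error only.

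HTB9 was the only H2B gene with a body peak in H2B-GFP replicate 1. The peak at chr3:16897815-16898139 was 325 bp wide and covered 199 of the 727 bp of the gene (27.4%). Its summit lay 91.5% of the way along the body toward the high-coordinate end, and 126 bp of it ran beyond the gene. It had a fold of 1.82 and a −log10 q of 1.75, ranking 861 of 1361 by fold and 985 of 1361 by −log10 q. The long non-coding RNA gene AT3G07315 overlaps HTB9 and lay under the same peak, so the peak cannot be given to either gene alone.

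The HTB9 peak was therefore an ordinary one for its list, and it was not called again. H2B-GFP replicate 2 had its nearest peak 9.47 kb from HTB9, although that list is the longer one. Of the 377 replicate 1 peaks with a −log10 q no higher than that of HTB9, 199 were overlapped by a replicate 2 peak (52.8%, Wilson 95% interval 47.7 to 57.8), and of all 1361 replicate 1 peaks 848 were (62.3%, 59.7 to 64.8). HTB11, the H2B gene nearest to HTB9 at a gap of 15.4 kb in the gene table, had no peak within 1 kb in any list. Its nearest H2B-GFP peaks were 15.2 and 5.13 kb away in replicates 1 and 2. The first of them is the HTB9 peak, and the other lies between the genes and is also the replicate 2 peak nearest to HTB9.

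**Figure D2:**
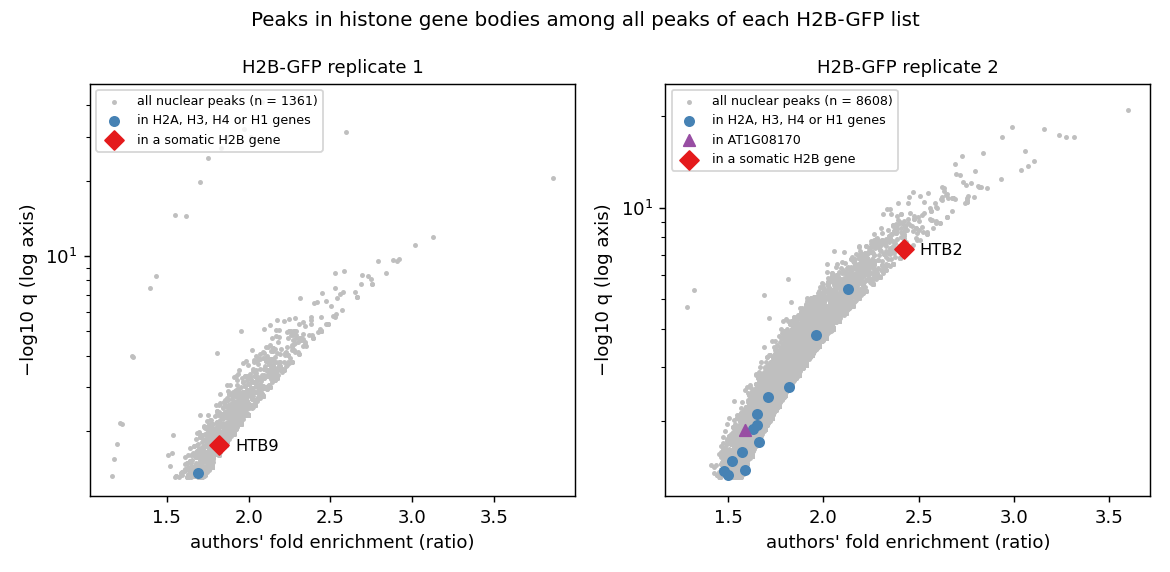
Authors' fold enrichment (x) and −log10 q (y, log axis) of every nuclear peak of H2B-GFP replicate 1 (left) and replicate 2 (right), with peaks in histone gene bodies marked. HTB2, at a fold of 2.42, stands near the top of its list and above every other histone gene, and HTB9, at 1.82, lies within the bulk of its list.

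HTB1 and AT3G09480 had an H2B-GFP peak beside the gene and none in it. At HTB1 the replicate 2 peak at chr1:2414460-2415852 lay 670 bp from the body, with a fold of 1.84 and a −log10 q of 3.24. It covered the protein-coding gene next to HTB1, AT1G07795, over 61.6% of its body, and reached into the pseudogene AT1G07800. At AT3G09480 the replicate 2 peak at chr3:2915667-2916210 lay 225 bp from the body, with a fold of 1.59 and a −log10 q of 1.79. It lay in the neighbouring gene AT3G09490, of which it covered 41.2%. Both peaks thus overlapped the next protein-coding gene. Replicate 1 had its nearest peak 5965 bp from HTB1 and 15.4 kb from AT3G09480.

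Like HTB11, the other 5 H2B genes had no peak within 1 kb in any list. AT2G28720 had its nearest H2B-GFP peaks at 30.3 and 3.46 kb in replicates 1 and 2, the latter in the neighbouring gene AT2G28710. HTB4 had them at 12.2 and 12.1 kb, where peaks of both replicates lay on the same side of the gene at nearly the same distance. AT2G37470 had them at 28.4 and 11.4 kb, and AT3G53650 at 14.5 and 9.43 kb. AT5G02570, which overlaps the H2A gene HTA12 in the gene table, had them at 59.6 and 6.11 kb.

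Taken over the 10 genes, 1 had a body peak in H2B-GFP replicate 1 (4.07% of all protein-coding genes did) and 1 in replicate 2 (25.2% did). Genes of the length of the H2B genes had peaks less often: among the 5257 protein-coding genes of 522 to 1286 bp the shares were 1.56% in replicate 1 and 14.3% in replicate 2. In both lists together 0 of 10 H2B genes had a body peak, beside 3.13% of all protein-coding genes and 1.05% of those in the length range. Within 1 kb, 1 H2B gene had a peak in replicate 1 (5.99% of all protein-coding genes did, and 3.06% of those in the length range). In replicate 2, 3 had one (34.8% of all and 23.3% in the length range). That makes 4 in either list (36.0% of all and 24.1% in the length range). With 10 genes, 1 gene more or less moves each share by 10.0 percentage points. The counts are thus too small to be set apart from their backgrounds, and no difference was tested.

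The GBPL3-GFP lists had no body peak in any of the 10 genes, and 16 (0.0583%) and 25 (0.0911%) of all protein-coding genes had one in replicates 1 and 2. Within 1 kb there was again none, where 0.0692 and 0.109% of all protein-coding genes had a peak. The nearest GBPL3-GFP peak to an H2B gene lay 1.10 Mb away in both replicates, at HTB1, and the farthest lay 8.55 Mb away in replicate 1 and 6.47 Mb away in replicate 2, both at AT2G37470. The median distance over the 10 genes was 3.49 and 2.88 Mb, and over all protein-coding genes 3.24 and 2.30 Mb.

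In the H2B-GFP lists the median distance over the 10 genes was 15.3 kb in replicate 1 and 5.62 kb in replicate 2, against 28.1 and 2.82 kb over all protein-coding genes. The median H2B gene was thus nearer to a peak than the median gene in replicate 1 and farther in replicate 2, with 4 and 7 of 10 beyond the median of all genes. The median of genes of its length was 32.0 kb in replicate 1 and 4.4 kb in replicate 2. Set against it, the gap was wider in replicate 1 and narrower in replicate 2, and neither was tested. Within 10 kb of a peak were 2 of the 10 genes in replicate 1 (24.5% of all protein-coding genes were) and 8 of the 10 in replicate 2 (78.8% were). HTB9 and HTB11 share their nearest peak in both lists, so these distances are not independent.

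**Figure D3:**
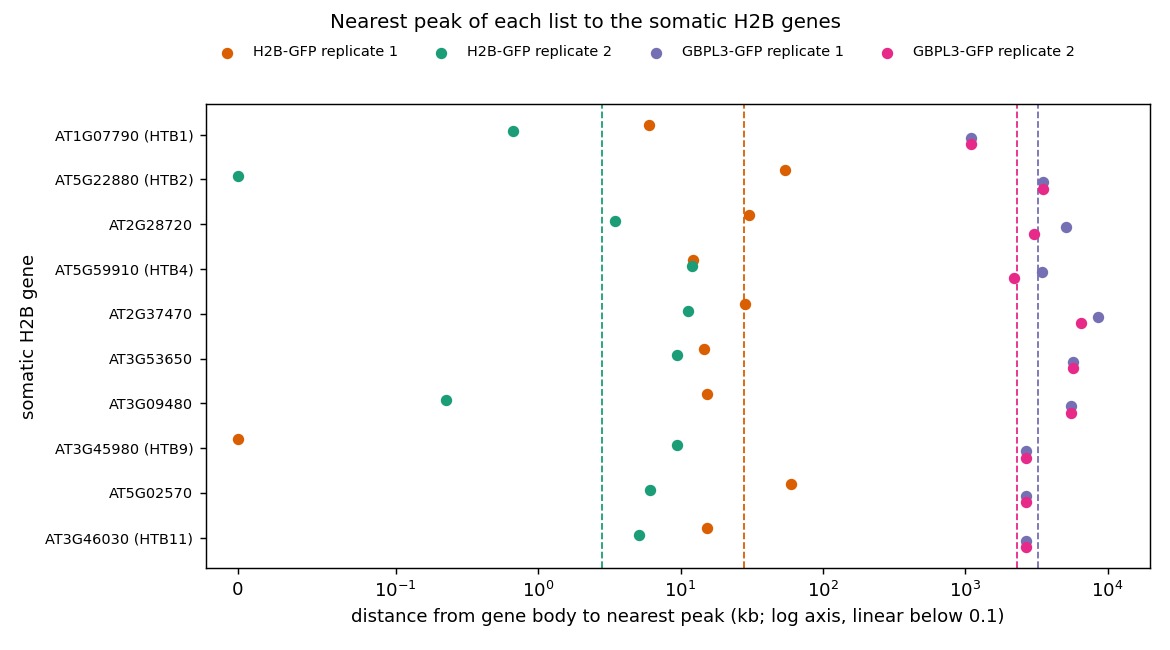
Distance in kb (log axis, linear below 0.1) from each somatic H2B gene to the nearest peak of each of the 4 lists; dashed lines are the medians over all protein-coding genes. Distances reach 59.6 kb in the H2B-GFP lists and start at 1.10 Mb in the GBPL3-GFP lists.

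The protein-coding gene next to each H2B gene on either side was read in the same way. Of these 20 neighbours, 0 had a body peak in H2B-GFP replicate 1 and 4 had one in replicate 2 (25.2% of all protein-coding genes did). Beside those of HTB1, AT2G28720 and AT3G09480 this was AT5G22890, the neighbour of HTB2, with a fold of 1.76 and 31.9% of its body covered. The 2.42 of HTB2 was above the neighbours' highest fold, 1.94 at AT2G28710.

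The tagged GTPase offers a second gene whose tagged copy is in the series. AT5G46070, taken here as the gene of AtGBPL3, had body peaks in both GBPL3-GFP lists, with folds of 7.13 and 43.77 in replicates 1 and 2 that ranked 30 of 87 and 1 of 81. These peaks covered 4.83 and 11.2% of its 5504 bp, all at the low-coordinate end, and most of the replicate 2 peak (844 of 1459 bp) lay outside the gene. Their top summits lay outside the body, at −16 and −465 bp from that end, and the replicate 2 peak also reached another gene. Replicate 1 had a further peak 399 bp from the body, in that other gene, with a fold of 6.09. In the H2B-GFP lists AT5G46070 had peaks at the same end with folds of 1.74 and 1.69. With body peaks in both lists of each fusion, it would fail the rule set for the H2B genes with the fusions exchanged. A gene that fails that rule is therefore not shown to lack a tagged copy. The HTB2 peak differed from this in being called in 1 list of its line and in covering the middle of a short gene (no test was run between folds of the 2 fusions).

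The other histone genes gave the setting for the family. HTB8, taken here as AT1G08170, had a body peak in H2B-GFP replicate 2 at chr1:2563227-2563504 with a fold of 1.59, covering 29.6% of the gene, and none in replicate 1. Of 37 genes for H2A, H3, H4 and H1, 1 had a body peak in replicate 1 (4.07% of all protein-coding genes did) and 13 (35.1%) had one in replicate 2 (25.2% of all protein-coding genes did). None of the 37 had one in both lists (3.13% of all protein-coding genes did), and none had a GBPL3-GFP peak within 1 kb.

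By class, replicate 2 body peaks lay in 1 of the 10 somatic H2B genes, against 3 of 13 H2A genes (HTA2, H2AXA and HTA10), 6 of 13 H3 genes, 1 of 8 H4 genes and all 3 H1 genes. Beside the 25.2% of all protein-coding genes and the 14.3% of those in the length range, classes this small do not show a difference between H2B and the other histones, and none was tested. H3 and H4 form the inner core of the nucleosome, and H1 is the linker histone that binds where DNA enters and leaves it. The H2B genes had a median length of 850 bp, against 1207 bp for the H2A, 882 bp for the H3, 822 bp for the H4 and 1264 bp for the H1 genes. The replicate 1 peak lay in HTA9, an H2A gene, at a fold of 1.69.

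The HTB2 peak, at a fold of 2.42, stood above those of all 13 genes, whose folds ran between 1.48 and 2.13 with a median of 1.65. The H3 gene AT5G10400 came nearest, with a fold of 2.13, a −log10 q of 5.43 and 51.4% of its body covered at chr5:3270369-3270772, ranking 630 of 8608. The H4 gene AT1G07660 followed with a −log10 q of 3.81 and 62.9% covered. The largest covered share was 72.9%, in the H1 gene HIS1-3, at a fold of 1.82, and HTR11, an H3 gene, had 72.4% at a fold of 1.5. A covered share as large as that of HTB2 was therefore found in 3 of the 13 genes, at lower folds.

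**Figure D4:**
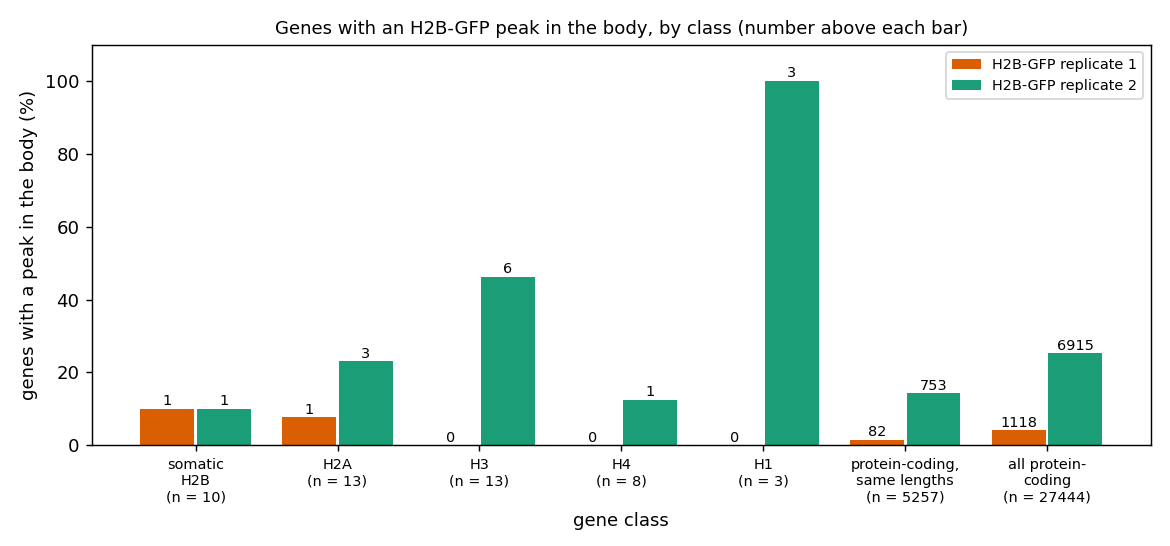
Share of genes (%) with a peak in the body in H2B-GFP replicate 1 and replicate 2, for the somatic H2B genes, the other histone classes, protein-coding genes of 522 to 1286 bp and all nuclear protein-coding genes; the number above each bar counts genes. The somatic H2B genes stand at 10.0% in both lists, beside 1.56 and 14.3% of genes of their length.

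No test was run on these counts: a peak list gives presence and not a value per gene and sample, and with 2 lists against 2 an exact 2-sided permutation test cannot pass 0.05, since its smallest p is 2 of the 6 possible splits. H2B genes are alike in sequence, and how reads that match several copies were placed is not given in the sources used here.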

How the data were processed

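ChIP-seq peak lists of 4 pulldown samples (H2B-GFP and GBPL3-GFP, 2 replicates each) were used. The submitters' processing notes name the aligner BWA 0.7.12, the peak caller MACS2 2.1.0 and the build TAIR10; their settings and any use of inputs in peak calling are not stated there. Each list belongs to 1 sample. The deposited columns hold the fold enrichment (a linear ratio) and the −log10 p and −log10 q; the authors' score is 10 times that −log10 q without its decimals. Read depth is unknown.

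With Python 3.11.15 and pandas 2.3.3, lines with the same start and end were counted as 1 peak, with the highest fold and −log10 q among them, and organelle peaks were left out. A gene had a body peak if at least 1 bp of it was overlapped. Genes came from a RefSeq table of TAIR10.1, without strand or exons, from which no coordinates are given; 91.2 to 93.6% of H2B-GFP replicate 2 summits per chromosome lay in its protein-coding genes, and 59.8 to 67.9% after shifts of 10 or 20 kb. The overlap counting was tested on simulated data.

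All 10 genes are named in every list; other genes are named if they are HTB8, AT5G46070, a histone gene with a peak, or share a peak with or stand next to an H2B gene. The classes of H2A, H3, H4 and H1 genes without a symbol, HTB8 and AT5G46070 were assigned from general knowledge. The members and lists were chosen with earlier results of these data known. Planned identities of H2B proteins and promoters were not computed, as no sequences were used here.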

Additional observations from a re-analysis of the deposited data

How the results depend on the processing

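Of the settings tried on the counts, the covered shares and the background shares, 119 values stayed within the margin set for them (1.5 times for a count, 1 SD between replicates for a covered share, the Wilson 95% interval for a background share) and 17 moved. Many of the 119 were values of 0 that could not change under a stricter filter or with a list left out. Among these were GBPL3-GFP counts and covered shares, and the covered shares of H2B genes without a body peak. The 119 are therefore no measure of how firm the results are. The SD margin is wide where a peak is in 1 list alone: the covered share of HTB2, 29.7% as the mean of the H2B-GFP lists, was 59.4% without replicate 1 and 0% without replicate 2. That of HTB9, 13.7%, was 0% without replicate 1, 27.4% without replicate 2, and 0% at a −log10 q of at least 2 or at least 5. The 2 H2B genes with a body peak in either H2B-GFP list became 1 at a −log10 q of at least 2 or at least 5, and 1 when 50% of the body had to be covered, which each left HTB2. In replicate 2, at least 50% of the body was covered in 3.16% of all protein-coding genes and in 5.16% of those in the length range of the H2B genes. Without replicate 1 or without replicate 2 the number of H2B genes with a body peak was 1. A count in both lists is not defined once a list is left out, and with both lists it was 0. The values run for it with 1 list left, counted among the 17, were the counts of that list alone. The 4 H2B genes with a peak within 1 kb became 2 at a −log10 q of at least 2 and 1 at a −log10 q of at least 5. Leaving out a replicate gave 1 to 3, which is the count of the remaining list. In both lists together the count within 1 kb was 0. All counts for the GBPL3-GFP lists were 0 under every setting run. The share of genes with a body peak was 1.56% and 14.3% in H2B-GFP replicates 1 and 2 for genes in the length range of the H2B genes, 3.25% and 19.6% for all nuclear genes, and 0.0571% in GBPL3-GFP replicate 2 for the length range. No paired analysis was possible because peak lists give presence per list and no test that could hold a block. Depth, which is unknown, limits every absence: a gene without a peak was not called, and is not shown to lack the fusion or added copies.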
